A study of Cinachyrella cavernosa with 3 samples.

Results

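The coding sequences described here were listed in the table of regenerating tissue of the demosponge Cinachyrella cf. cavernosa, with at least 50 reads, and were not listed in the table of tissue taken before the wound or in that of tissue taken after regeneration. There were 163 of them, of 3229 coding sequences listed in any of the 3 tables and of 494 that were listed during regeneration only at any count. They were selected on their read count in the regeneration library and on their absence from the other lists, so both are a description and were not tested. How the authors decided which sequences to list is not given in the sources used here, and being unlisted is not the same as having 0 reads. For that reason no fold change against the other stages is given.

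The sponges were kept in natural sea water at room temperature, were fed 2 times a week and were acclimatised for 2 weeks, per the labels' protocols. In groups of 3 they were then moved to smaller aquaria, where a wound modelled on the bite of a fish removed about 10% of the volume of the sponge. The control was tissue from before wounding; the other 2 groups were regenerating tissue and tissue sampled once regeneration was over, with 1 library for each of the 3. The labels state neither the time after wounding nor how many sponges a library represents, so the stage cannot be told apart from the animal sampled.

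A demosponge has no organs; its body is a canal system lined by choanocytes, the collared cells that pump water, set in a matrix called the mesohyl and covered by flat pinacocytes. Sponges are known for rebuilding lost parts. In many species a wound is first sealed by pinacocytes, and mobile cells of the mesohyl, among them archaeocytes that can turn into other cell types, gather beneath it. The files give each coding sequence an identifier (a CDS number and a Unigene number) and pair none of them with a gene name, and no annotation or sequence was used here. No function, cell type or organism of origin can therefore be given to any of the 163, and no marker of sponge cells or of the microbes that live in sponges could be read.

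The regeneration table held 1769 coding sequences and 1062098 reads. The table from before the wound held 1928 and 773142, and the table from after regeneration 2127 and 965464. Every count was even, so each read pair appears as 2 reads. Intervals on reads were computed on pairs and cover counting error only. Intervals on shares of sequences and on median lengths were computed over sequences. They take sequences as independent, although some share length and count. No interval covers variation between samples. With 1 library per stage no difference between stages could be tested.

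The 163 coding sequences held 30240 reads, which was 2.85% of the regeneration library (exact binomial 95% interval 2.803 to 2.892). Their counts ran from 50 to 1384 with a median of 98, so most were well below the leading sequences of the library. Of the 163, 79 had at least 100 reads, 47 at least 200, 12 at least 500 and 4 at least 1000. The 10 with the most reads held 28.4% of the reads of the 163. Just inside the threshold, 4 sequences had 50 reads and 5 had 52; just outside it, 3 sequences listed during regeneration only had 48 reads and 10 had 46.

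CDS_9704_Unigene_14925 (651 bases) had the most reads, at 1384 during regeneration, and was listed at neither other stage. It ranked 39 by reads among the 1769 coding sequences of that library. CDS_20290_Unigene_31508 (900 bases) had 1208 reads and CDS_24865_Unigene_38585 (1521 bases) had 1198. CDS_9700_Unigene_14921 (501 bases) had 1136 reads and CDS_37525_Unigene_58718 (1023 bases) had 672. A wide gap separates the 4 highest counts from the next, and these 5 together held 18.5% of the reads of the 163. At the other end, CDS_7031_Unigene_10862 (384 bases) had 50 reads.

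The order by deposited FPKM, which counts fragments per length and library size, differed from that by reads. By FPKM CDS_29101_Unigene_45385 (351 bases, 662 reads) led the 163 at 2439.41. CDS_9700_Unigene_14921 followed at 2334.95 and CDS_47616_Unigene_74533 (327 bases, 298 reads) at 1877.36. CDS_9704_Unigene_14925, first by reads, had an FPKM of 1601.40, a value that accounts for an estimated 53.7% of its read pairs. Of the 163, 9 had an FPKM of at least 1000 and the median was 164.4, against 481.0 for the other 716 coding sequences with at least 50 reads in that library. The highest of the 163 ranked 91 by FPKM in the library, with an FPKM that accounts for an estimated 61.6% of its read pairs. By reads the best rank among the 163 was 39.

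If a sequence had kept its level of the regeneration library, the size of the other 2 libraries gives the reads it would have had there. Scaled by library total times TMM factor (a trimmed mean that sets aside the most divergent sequences), CDS_9704_Unigene_14925 would have had 1609 reads before the wound (exact Poisson 95% interval on its pairs 1491 to 1733) and 1827 after regeneration (1694 to 1969). With library totals alone these values were 1007 and 1258. CDS_7031_Unigene_10862, at the threshold, would have had 58 reads before the wound (38 to 86) and 66 after regeneration (43 to 97). By library totals alone its values were 36.4 and 45.5. The median listed count was 52 reads before the wound and 48 after regeneration. Both medians lie between the values that the 2 scalings give for CDS_7031_Unigene_10862. For a sequence at the threshold the expected reads follow from the threshold and the library sizes alone.

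During regeneration 879 coding sequences had at least 50 reads, and the 163 made up 18.5% of them. The same rule applied to the other libraries gave 159 of 1010 (15.7%) listed before the wound only and 128 of 1043 (12.3%) listed after regeneration only. A list of this size was thus found at every stage, and its existence is not specific to regeneration. Of the 879, 618 were listed at all 3 stages, 85 during and after regeneration and 13 before and during. The 85 had 10 to 500 reads after regeneration, with a median of 62. The 13 had 58 to 646 reads before the wound, with a median of 190.

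Sequences listed elsewhere at very low counts were looked at as the nearest to the rule. With a limit of 10 reads, which is the 5th percentile of listed counts in both other tables, 3 coding sequences with at least 50 reads during regeneration were listed in another table and stayed within the limit in each table that listed them. CDS_51010_Unigene_79748 had 64 reads during regeneration, CDS_60405_Unigene_94415 had 62 and CDS_36954_Unigene_57796 had 54. Each of the 3 had 10 reads after regeneration and was not listed before the wound.

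The share listed in a single library differed between bands of counts, with no steady order in the regeneration library. There it was 29.4% for 50 to 99 reads (exact binomial 95% interval 24.2 to 35), 13.4% for 100 to 199 (9.38 to 18.4), 16.1% for 200 to 499 (11.4 to 21.6) and 8.76% for 500 or more (4.61 to 14.8). In the highest band the other libraries gave 2.72% before the wound (0.888 to 6.23), which was 5 of 184 sequences, and 0.503% after regeneration (0.0127 to 2.77), which was 1 of 199. The regeneration library held 12 of 137 there. Of these 12, 7 had another of the 163 within 5 Unigene numbers, against 39 of all 163 (23.9%). The same was not counted for the other sequences of that band. The estimated part of their read pairs that FPKM accounts for ran from 0.0% (CDS_37526_Unigene_58719) to 100.0% (CDS_20290_Unigene_31508). Sequences of 1 library are not replicates of a stage, so these intervals do not compare the stages.

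**Figure D1:**
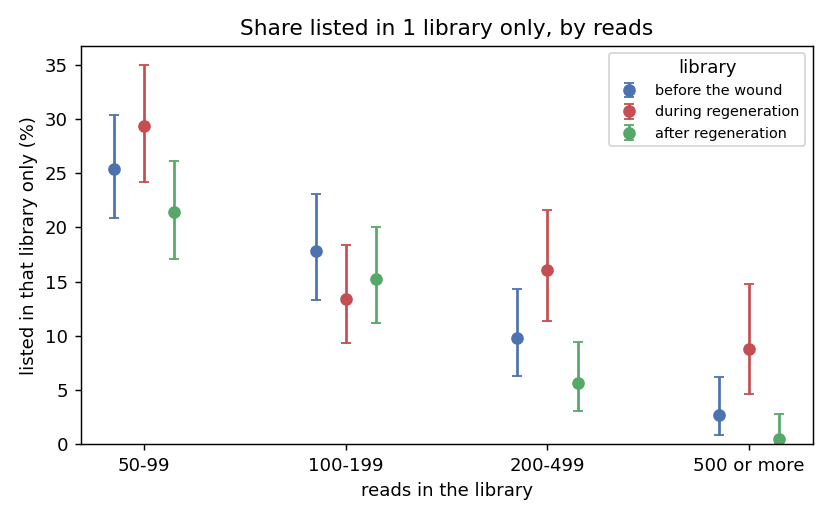
Percent of coding sequences listed in 1 library only (y axis), by reads in that library (x axis), for the 3 libraries, coloured by stage. Points are shares and bars are exact binomial 95% intervals over sequences. In the band of 500 reads or more the shares are 8.76% during regeneration, 2.72% before the wound and 0.503% after regeneration. The bars during regeneration and before the wound overlap, and the intervals do not compare the stages.

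The 163 were long. Their lengths lay between 300 and 5346 bases, and the median was 654 (order-statistic 95% interval 591 to 732), while the 716 with at least 50 reads that were listed at another stage too had a median of 408 (396 to 420). Of the 163, 60 (36.8%) had at least 800 bases and 36 (22.1%) had under 400; of the 716 these shares were 13.7% and 48.3%. The longest, CDS_54331_Unigene_84949 (5346 bases), had 248 reads during regeneration and an FPKM of 49.31. The shortest, CDS_49219_Unigene_77004 (300 bases), had 98 reads and an FPKM of 786.55. Length was not part of the rule, but it was compared across sequences of 1 library and carries no test of stage.

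The difference in length was present in every band of counts. Among sequences with 50 to 99 reads the median was 631.5 bases for those listed during regeneration only and 393 for the others. With 100 to 199 reads the medians were 618 and 408, with 200 to 499 reads 666 and 417, and with 500 or more 1005 and 399. Reads and length were only weakly related within the 163, with a Pearson r of 0.15 on log2 values and a Spearman rho of 0.12 across sequences of 1 library. The 331 coding sequences listed during regeneration only with under 50 reads had a median of 381 bases, close to the 390 of all sequences listed in that library.

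**Figure D2:**
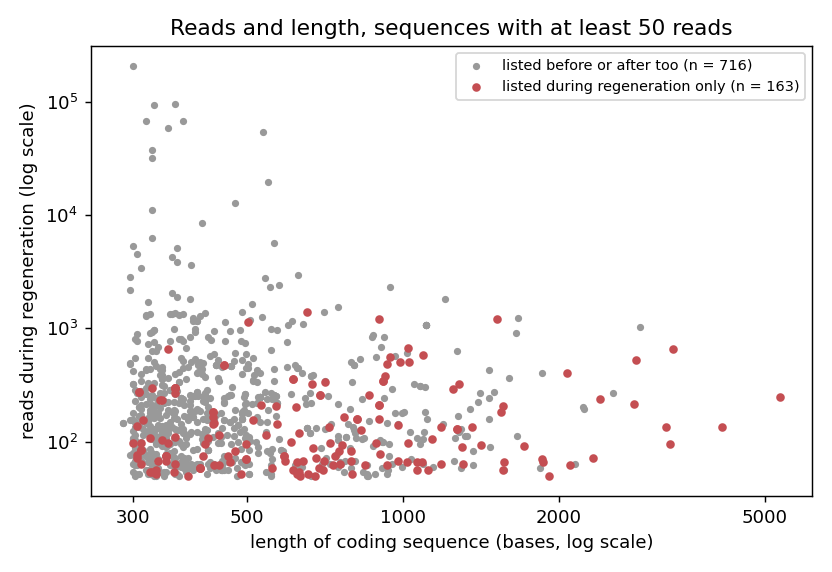
Reads during regeneration (y axis, log scale) against length in bases (x axis, log scale) for coding sequences with at least 50 reads, each point 1 sequence; the 163 listed during regeneration only are in red and the 716 listed at another stage too in grey. The red points reach 5346 bases but stop at 1384 reads, below the most abundant grey points.

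Greater length was shared by the single-library sequences of the other stages with at least 50 reads. Those listed before the wound only had a median of 693 bases, against 399 for the sequences of that library listed elsewhere too. Those listed after regeneration only had a median of 801, against 402. With under 50 reads, the medians were 405 bases for sequences listed before the wound only and 375 for those listed after regeneration only. All sequences of those libraries had medians of 399 and 387. During regeneration the share listed there only was 9.42% under 400 bases (6.69 to 12.8), 13.2% from 400 to 599 (9.26 to 18), 38.2% from 600 to 799 (28.1 to 49.1), 33.0% from 800 to 1199 (23.8 to 43.3) and 45.9% from 1200 bases (33.1 to 59.2). In all 3 libraries the share was higher in each band from 600 bases on than in the bands below.

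Of the 8 coding sequences of the series longer than 2865 bases, the longest of the 716, 5 were among the 163 and the other 3 were listed after regeneration only. CDS_8354_Unigene_12872 (4143 bases) had 136 reads during regeneration. CDS_51326_Unigene_80202 (3318 bases) had 652 reads, CDS_57036_Unigene_89091 (3285 bases) had 96 and CDS_18829_Unigene_29245 (3219 bases) had 134. Together with CDS_54331_Unigene_84949 these are the 5. The sequences longer than 2865 bases were named after their values were seen. Since this limit is the greatest length among the 716, none of the 716 could pass it.

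**Figure D3:**
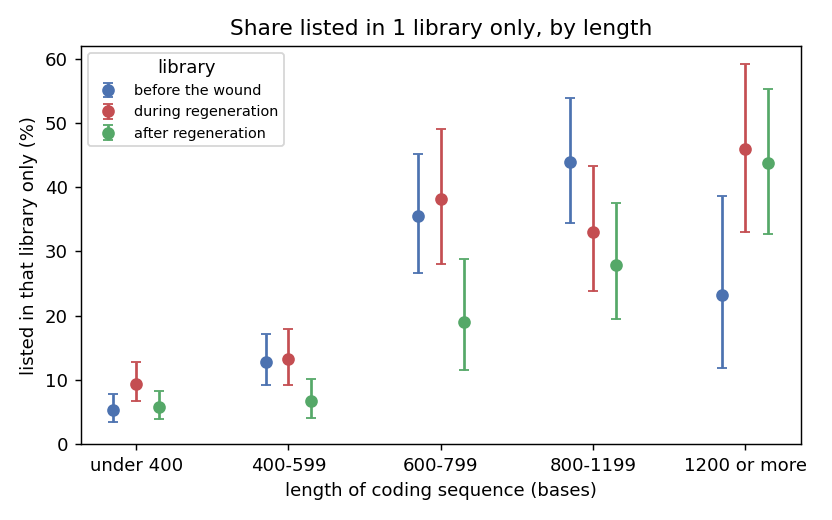
Percent of coding sequences with at least 50 reads listed in 1 library only (y axis), by length in bases (x axis). The 3 libraries are shown, with points for shares and bars for exact binomial 95% intervals over sequences. In the regeneration library the share is 9.42% under 400 bases and 45.9% from 1200 bases, and the other libraries are also higher from 600 bases on.

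The deposited FPKM accounted for all the reads of some of the 163 and for a part of the reads of others. The share of read pairs that FPKM keeps was estimated from pairs over FPKM at a given length. It was at least 90% for 85 of the 163 (52.1%, exact binomial 95% interval 44.2 to 60). The same was found for 62.3% of the other 716 (58.6 to 65.9). The intervals overlap. The sequences listed before the wound only and after regeneration only gave 50.9% (42.9 to 58.9) and 44.5% (35.7 to 53.6). Of the 5 sequences with the most reads, FPKM kept 100.0% for CDS_20290_Unigene_31508, CDS_24865_Unigene_38585 and CDS_37525_Unigene_58718. It kept 65.4% for CDS_9700_Unigene_14921 and 53.7% for CDS_9704_Unigene_14925. The 85 that kept at least 90% held 12938 reads and had a median length of 678 bases, so they were as long as the whole group.

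Sets of sequences with identical length and count carried many of the lower kept shares. Of the 163, 13 kept 48 to 52% of their pairs, 12 of them in such sets, and 8 kept 23 to 27%, 6 of them in such sets. With each set counted once, 7 and 4 sequences lay in these ranges, about as many as kept 38 to 42% (4) or 58 to 62% (6). The largest set with identical length and count had 4 members. These were CDS_2620_Unigene_4048, CDS_60417_Unigene_94443, CDS_60418_Unigene_94444 and CDS_60420_Unigene_94447, each of 363 bases with 296 reads and an FPKM of 401.06. FPKM kept 25.0% of the pairs of each, which is 1 in 4. CDS_5359_Unigene_8302 and CDS_5360_Unigene_8303, with 612 bases and 360 reads each, kept 50%, which is 1 in 2. In all, 34 of the 163 fell into 15 such sets, and 144 sequences remained when each set was counted once. Counted once, the reads came to 26470 in place of 30240. In 1 set, of 405 bases and 58 reads, FPKM differed. It was 239.6 for CDS_11699_Unigene_18027 and 128.88 for CDS_23276_Unigene_36132 and CDS_39721_Unigene_62191. How reads that match several sequences were counted is not stated in the labels, and whether these sets are copies of 1 gene was not tested.

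Of the 163, 4 had reads but an FPKM of 0, and 2 of these form 1 of the 15 sets. CDS_37526_Unigene_58719 (942 bases) had 562 reads and an FPKM of 0, and the next identifier, CDS_37525_Unigene_58718 (1023 bases), had 672 reads and kept 100.0% of them. CDS_34692_Unigene_54231 (498 bases) had 96 reads and an FPKM of 0; CDS_34694_Unigene_54233 (858 bases) had 260 reads and kept 100.0%. CDS_13034_Unigene_20141 and CDS_42883_Unigene_67137, both of 429 bases with 184 reads, were the other two. Near the first of that pair, CDS_13032_Unigene_20138 (870 bases) had 840 reads during regeneration and 22 after it, and kept 100.0%. Each nearby sequence was chosen as the one with the most reads during regeneration within 5 Unigene numbers. In each of these 3 cases it was the longer one.

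**Figure D4:**
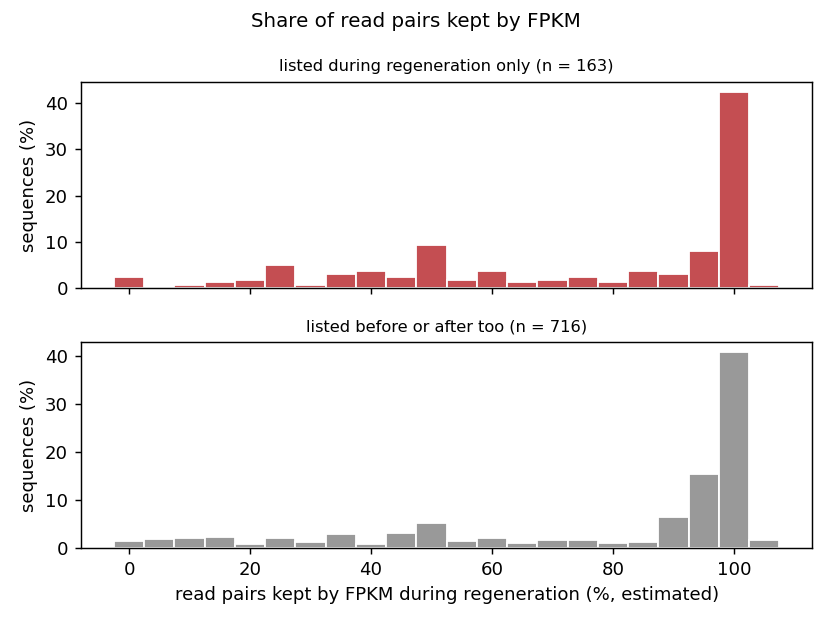
Distribution of the estimated percent of read pairs kept by FPKM during regeneration (x axis), as percent of sequences (y axis), for the 163 sequences listed during regeneration only (top) and the 716 with at least 50 reads listed at another stage too (bottom). Both peak near 100%, and the upper panel has smaller peaks near 50%, where 13 sequences kept 48 to 52%, and near 25%. Sets of sequences with identical length and count make up 12 of those 13.

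A part of the 163 had neighbouring identifiers within the group. The files do not say what neighbouring Unigene numbers share. Of the 163, 24 (14.7%) had another of the 163 at an adjacent number, and of the 716 others 80 (11.2%) had another of the 716 there. Within 5 numbers the counts were 39 of the 163 (23.9%) and 154 of the 716 (21.5%). The second group is larger and so offers more neighbours, so these shares are not like for like. One of the 163 stood within 5 numbers of 12 of the 716 (1.68%). For all 1769 sequences listed during regeneration, another of the 163 stood there for 71 (4.01%). Taking listed numbers at most 5 apart as 1 run, 17 runs held 2 or more of the 163. They took in 41 of the 163 and 11732 of their reads. Runs were not counted for the 716.

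The run with the most reads spanned Unigene numbers 14915 to 14926 and held 7 of the 163, with 3354 reads or 11.1% of the reads of the group. CDS_9700_Unigene_14921 and CDS_9704_Unigene_14925, described above, had 1136 and 1384 reads. CDS_9701_Unigene_14922 and CDS_9705_Unigene_14926 each had 900 bases and 212 reads, and CDS_9702_Unigene_14923 and CDS_9703_Unigene_14924 each had 813 bases and 160 reads. FPKM kept 39.8% of the pairs of the first of these pairs and 17.3% of the second. CDS_9695_Unigene_14915 (1299 bases) had 90 reads and kept 97.1%. The 7 were unlisted before the wound and after regeneration by the rule that selected them. The remaining sequence of the run, CDS_9696_Unigene_14916 (1296 bases), was listed after regeneration only, with 138 reads. It stood next to CDS_9695_Unigene_14915 in number and was 3 bases shorter.

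**Figure D5:**
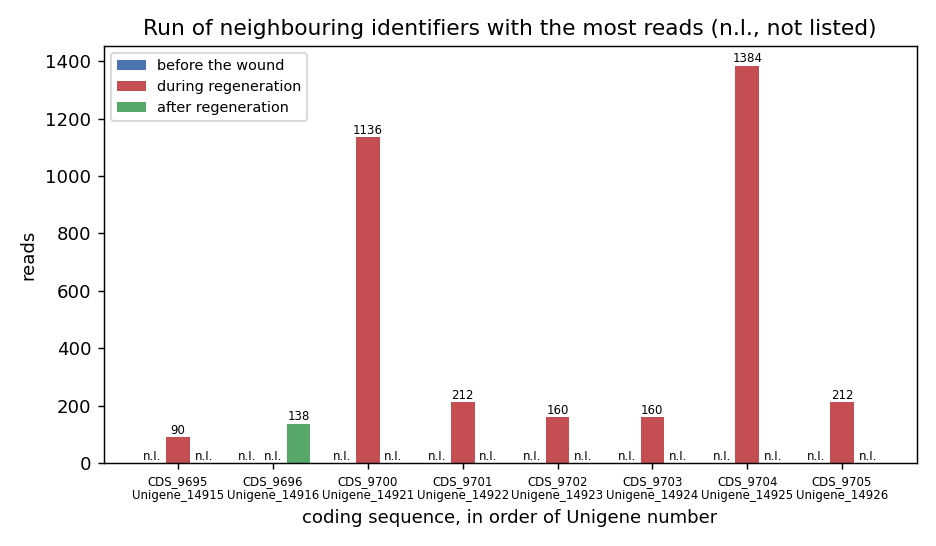
Reads (y axis) of the 8 coding sequences with Unigene numbers 14915 to 14926 (x axis) in the 3 libraries, 1 bar per library and sequence, with n.l. where a table does not list the sequence. Of the 8, 7 are listed during regeneration only, with up to 1384 reads, and CDS_9696_Unigene_14916 is listed after regeneration only, with 138 reads.

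The other 16 runs held 2 or 3 of the 163 each and were not all built like the first. CDS_51325_Unigene_80201 (2817 bases) and CDS_51326_Unigene_80202 (3318 bases) had 524 and 652 reads, and FPKM kept 8.8% of the pairs of the first and 93.5% of the second. CDS_50042_Unigene_78285 (1029 bases, 504 reads) stood in a run of 2 that held 708 reads. CDS_4348_Unigene_6736 and CDS_4351_Unigene_6740, each of 915 bases with 346 reads, kept 50% each. Next to them, CDS_4352_Unigene_6741 (450 bases) had 52 reads before the wound and 14 during regeneration. These sequences were chosen after their values were seen.

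Some of the 163 stood next to a sequence of another stage. An adjacent Unigene number was listed before the wound or after regeneration for 14 of the 163 (8.59%), against 122 of the 716 others (17.0%) and 204 of all 1769 sequences listed during regeneration (11.5%). For 5 of the 163 (3.07%) the adjacent sequence was listed at another stage and not during regeneration, against 34 of the 716 (4.75%) and 78 of the 1769 (4.41%). Within 10 numbers the order turned, with 30.7% of the 163, 25.7% of the 716 and 27% of the 1769. CDS_59047_Unigene_92235 (312 bases, 98 reads) lay between CDS_59046_Unigene_92234 and CDS_59048_Unigene_92236, which had 309 bases, 52 reads before the wound and 96 after regeneration each and were not listed during it. With CDS_9695_Unigene_14915 it is 1 of 2 cases among the 5 in which the lengths differed by 3 bases. For CDS_43580_Unigene_68196 (705 bases, 334 reads) the adjacent sequence had 543 bases and 48 reads after regeneration. These sequences were chosen after their values were seen. Whether such neighbours are forms of 1 gene was not tested, since no sequences were used.

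Identical counts during regeneration did not always go with identical listing. CDS_54646_Unigene_85440 and CDS_54648_Unigene_85442, both among the 163, had 309 bases, 272 reads and an FPKM of 459.69. CDS_54647_Unigene_85441 and CDS_54651_Unigene_85445 had the same length, the same reads and the same FPKM during regeneration, and both were listed after regeneration with 42 reads each. FPKM kept 21.8% of the pairs of each of the 4 during regeneration. For this set the absence from the later table therefore separated sequences that the regeneration library did not tell apart.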

How the data were processed

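Per the labels' protocols, RNA was isolated with TRIzol and TruSeq stranded mRNA libraries were sequenced as read pairs. For each library the authors deposited whole-number read counts, lengths and FPKM values by coding sequence, per the file headers. Per the submitters' processing notes FastQC, Trimmomatic and RSEM were used (no versions). Which assembler and aligner were used, and how sequences were chosen for listing, is not given in the sources used here. Counts were used as deposited. Library sizes were scaled by TMM over 887 common coding sequences (edgeR 4.0.16, R 4.3.3; DESeq2 1.42.0 for median-of-ratios factors). The share of pairs that the deposited FPKM keeps was estimated from pairs over FPKM at the quantile 0.2, by a line from 400 bases and in bins of 20 bases below (statsmodels 0.14.6), and was checked on simulated data. No test was run, since each stage has 1 library. Coding sequences named were the 5 with most reads, the 3 with highest FPKM, the longest and the shortest. The largest set with identical length and count and the first sequence at the lowest count were named too. Others were chosen after their values were seen. The members and rules were chosen with earlier results of these data known.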

Additional observations from a re-analysis of the deposited data

How the results depend on the processing

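No paired analysis was possible because each stage has 1 library, and no library could be left out within a stage. The number of coding sequences (163) became 340, 79 and 47 at thresholds of 20, 100 and 200 reads, as the thresholds require, and 85 where FPKM kept at least 90% of pairs. Their share of reads (2.847%) became 3.365%, 2.296% and 1.88% at the same thresholds, 1.64% with FPKM times length, 9.048% without the 10 most abundant sequences in the denominator and 2.531% without the run at Unigene numbers 14915 to 14926, an alternative added after seeing the data. The median length (654 bases) was 502.5 at 20 reads. The share that kept most pairs (52.15%) was 73.62% at a limit of 50%. With library totals the reads expected of CDS_9704_Unigene_14925 were 1007 before the wound and 1258 after regeneration. Members with a neighbour listed at another stage numbered 47 within 5 and 75 within 10, as wider windows require. The share listed during regeneration only (18.54%) was 25.0%, 13.32% and 13.24% at 20, 100 and 200 reads. The other 13 of 32 alternatives moved their value by less than its interval or by less than 1.5 times for a count.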

Other observations

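Of the 163 coding sequences, 4 matched a sequence listed at all 3 stages in length and in reads during regeneration, with a distant identifier. How many such matches arise by coincidence was not tested. CDS_44637_Unigene_69809 and CDS_41201_Unigene_64502 had 429 bases, 164 reads and an FPKM of 660.59 each, and before the wound the second had 488 reads, with 184 after regeneration. CDS_23827_Unigene_36990 and CDS_36633_Unigene_57256 had 306 bases, 72 reads and an FPKM of 552.94 each, and the second had 116 and 514 reads at those stages. FPKM kept 100.0% of the pairs of the former 2 sequences and 99.3% of the latter 2. In the other two matches FPKM differed. CDS_47616_Unigene_74533 had 1877.36 and CDS_35193_Unigene_55036 had 1985.78, both with 327 bases and 298 reads. CDS_65220_Unigene_101885 had 320.12 and CDS_32019_Unigene_49908 had 366.81, both with 324 bases and 54 reads. These sequences were chosen after their values were seen.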
